A study of Mus musculus with 167 samples.

Results

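7SK RNA and the genes of the proteins that hold or form the kinase P-TEFb were followed in single lymphoid-primed multipotent progenitors (LMPPs) of mouse bone marrow, in 7 of the 38924 genes of the table. They are Rn7sk, which encodes the 7SK RNA, Larp7 and Mepce, whose proteins bind it, Hexim1, the inhibitor, Cdk9, the kinase, and Ccnt1 and Ccnt2, its cyclins. They were listed by function but chosen on measured values, since the TPM of these same cells, among them the low Rn7sk level at 14 months, were known. Their values are therefore a description with no test. All 7 were among the 9224 genes called measured, which had a TPM, a transcript abundance per length scaled to a fixed total in each cell, of 1 or more in at least 10% of cells, averaged over both ages.

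Cells came from female C57BL/6J mice of 14 months and, for comparison, of 4 months, all wild type, with no treatment given in the labels. Cells of both ages were sorted as lineage-negative, Sca-1 and c-Kit positive, CD150 negative, CD34 positive and Flt3 high, and were captured one by one on a microfluidic chip. LMPPs are early progenitors with lymphoid and granulocyte-monocyte potential. The comparison asks how single LMPPs differ between the ages. Each age is 1 sample, because no label names an animal, so no difference below has a replicate check and no p-value is given.

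7SK is a small nuclear RNA made by RNA polymerase III. It holds P-TEFb, the pair of CDK9 and a T-type cyclin, in an inactive particle. Released P-TEFb phosphorylates RNA polymerase II and its pausing factors, and paused polymerase then moves into the gene body. MEPCE caps the first base of 7SK, LARP7 binds its terminal uridines, and HEXIM1 binds repeats of GAUC in the first hairpin and blocks the kinase. In blood progenitors, pause release by P-TEFb takes part in the induction of lineage and stress genes.

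The Rn7sk gene is a misc_RNA of 331 bases with 1 annotated transcript, on the minus strand at chr9:78175303-78175633 (mm10). Both ends are shown because they are where the protein partners bind. In the first 120 bases (chr9:78175514-78175633, minus strand) the capitals mark GATC, written with T for U. In the last 40 bases (chr9:78175303-78175342, minus strand) they mark the terminal T run that LARP7 binds. Both were read from GENCODE M21 transcripts.
Rn7sk, 5′ end: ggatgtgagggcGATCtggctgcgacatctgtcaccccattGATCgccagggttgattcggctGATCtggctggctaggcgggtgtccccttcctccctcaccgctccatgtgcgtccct
Rn7sk, 3′ end: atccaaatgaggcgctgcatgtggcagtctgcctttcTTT
GATC occurred 3 times, at bases 13, 42 and 64 from the 5′ end, and nowhere else in the RNA. It reads the same on both strands. At least 1 GATC stood in the first 120 bases of 27.6% of the 137364 transcripts of that length or longer, and 3 or more stood there in 0.521%. An end in TTT was found in 3.06% of all 141767 transcripts. These are matches of letters, not measured binding. The nearest gene, the lincRNA C920006O11Rik, starts 281 bp away on the other strand.

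The table held 84 columns of each age, each scaled to a total of 1000000 TPM, so sequencing depth is unknown. Cells with at least 1000 genes at 1 TPM or more were kept, which left 66 cells of 14 months and 64 cells of 4 months. Just inside that limit lay cells with 1021, 1041 and 1043 genes and just outside it columns with 998, 955 and 943 genes, none with Rn7sk. The 14-month columns carry the number 4 or 5, which no source used here explains. They are called set 4, with 29 kept cells, and set 5, with 37. The 4-month columns carry none, so age and capture run cannot be told apart.

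Kept cells had a median of 3281 genes at 14 months and 3974.5 at 4 months. Mitochondrial transcripts held a median of 17.7% of TPM at 14 months and 12.4% at 4 months. The sort markers were present, with Flt3 in 61 of 66 cells of 14 months and 64 of 64 of 4 months, and Cd34 in 58 cells of 14 months and 57 of 4 months. Kit was in 35 cells of 14 months and 43 of 4 months, and Ly6a (Sca-1) in 25 of each age. Of the markers sorted against, Slamf1 (CD150), Cd3e and Ly6g were at 0 in all kept cells, while Itgam (CD11b) was in 17 cells of 14 months and 44 of 4 months, with medians of 0.555 and 1.72 TPM. Of 21 markers of other blood cells, 7 were in no cell at 14 months and 6 in none at 4 months, Gata1, Pax5, Cd3e and Cd3g among them at both ages. Their summed level per cell ranged between 0 and 32979 TPM at 14 months (median 533) and between 0 and 5902 TPM at 4 months (median 429). Some differed between the ages, such as Nkg7, found in 48 and 35 cells at 14 and 4 months, Mecom, in 15 and 34, and Vwf, in 31 and 49. Granulocyte and monocyte markers went both ways. Elane (11 and 4 cells), Ly6c2 (8 and 0), Mpo (41 and 35) and S100a8 (7 and 3) were in more cells at 14 months. Csf1r (4 and 17) was in fewer. The part of these measures in the results was not tested.

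A pair of 14-month cells was so alike that it may be 1 cell deposited under separate names. It consisted of 1 cell of set 4 and 1 of set 5, and their log2(TPM+1) values over measured genes correlated at r = 0.966, against a median of 0.40 over all 8385 pairs of kept cells. They had 4516 and 4213 genes, of which 3943 were shared, 87.3% of the set 4 cell's and 93.6% of the set 5 cell's. Both held Rn7sk, at 293 and 230 TPM, next below the highest value at 14 months. They were kept as 2 cells, and Rn7sk values are also given with the pair counted as 1 cell. Another 3 pairs, all at 14 months and none with Rn7sk, correlated above 0.75.

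Rn7sk was found in fewer cells at 14 months and at far lower levels. It ranged between 0 and 356 TPM at 14 months (median 0, n = 66 cells) and between 0 and 71957 TPM at 4 months (median 41.4, n = 64 cells). It was detected, at 1 TPM or more, in 20 of 66 cells of 14 months, 30.3% (exact binomial 95% interval 19.6 to 42.9), and in 41 of 64 cells of 4 months, 64.1% (51.1 to 75.7). These intervals, like all below, cover counting error only, and they did not overlap. In 47 cells of each age paired by number of genes, it was in 31.9% at 14 months (19.1 to 47.1) and in 59.6% at 4 months (44.3 to 73.6), and these overlapped. Values of both ages overlapped between 12.55 and 356 TPM, but no 14-month cell reached 1000 TPM, while 11 cells of 4 months did. At 100 TPM or more there were 5 cells of 14 months and 26 of 4 months.

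**Figure D1:**
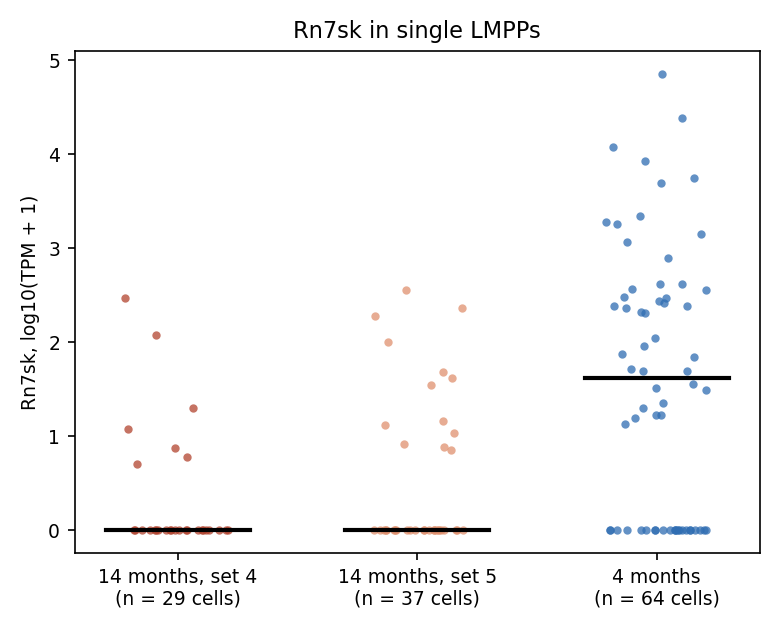
Rn7sk in each kept cell, as log10(TPM + 1) on the vertical axis, for set 4 and set 5 of the 14-month cells and for the 4-month cells. Points are cells and black lines are medians. Medians lay at 0 TPM in both 14-month sets, and 11 cells, all of 4 months, stood at 1000 TPM or more.

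Among cells with the RNA the level was also lower. Detected cells had a median of 16.3 TPM at 14 months and 243 TPM at 4 months. The lowest value above 0 was 4.13 TPM in 14-month cells, against 12.55 TPM in 4-month cells. It was much higher than the lowest of Ccnt2, at 0.10 TPM at 14 months and 0.13 TPM at 4 months. TPM divides by transcript length, so a read counts for more in a short RNA.

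On the log2(TPM+1) scale Rn7sk averaged 1.48 ± 2.52 at 14 months and 5.21 ± 4.65 at 4 months (SD over 66 and 64 cells). The difference, 14 minus 4 months, was -3.74, larger than the SD at 14 months and smaller than that at 4 months. Most genes had a lower mean at 14 months, 77% of those measured, and the median difference was -0.36. Differences are therefore also given relative to that median. The relative difference of Rn7sk was -3.38, the 11th lowest of 9224 measured genes. A relative difference of -1 or less was seen in 5.08% of measured genes and one of 1 or more in 3.37%.

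Both sets of 14-month cells were low. Rn7sk was in 7 of 29 cells of set 4, 24.1% (10.3 to 43.5), with a highest value of 293 TPM. In set 5 it was in 13 of 37 cells, 35.1% (20.2 to 52.5), with a highest value of 356 TPM. Means on the log2 scale ran upward in the order set 4 (1.06 ± 2.19), set 5 (1.80 ± 2.73) and 4 months (5.21 ± 4.65), and sets 4 and 5 differed by less than the SD over their cells. Relative to each set's own median, the difference from 4 months was -3.72 for set 4 and -3.08 for set 5. With the alike pair counted as 1 cell, Rn7sk was in 19 of 65 cells of 14 months, 29.2%. Leaving out both cells of the pair gave 18 of 64 cells, and the mean at 14 months was then 15.4 TPM.

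A few cells carried most of the mean TPM. Mean Rn7sk came to 22.9 TPM in 14-month cells, against 2201 TPM in 4-month cells, a ratio of 0.0104. The highest cell held 23.6% of all Rn7sk TPM at 14 months and 51.1% at 4 months. The 5 highest cells held 78.7% at 14 months, where they include both cells of the alike pair, and 86.7% at 4 months. Once each age's top cell was left out the means were 17.8 TPM at 14 months and 1094 TPM at 4 months, a ratio of 0.0163. Without the 5 highest of each age they were 5.28 TPM at 14 months and 317 TPM at 4 months, a ratio of 0.0166. The mean at 4 months therefore moved more than 1.5-fold with 1 cell, whereas the log2 difference was -3.67 without the top cell per age and -3.52 without the 5 highest.

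**Figure D2:**
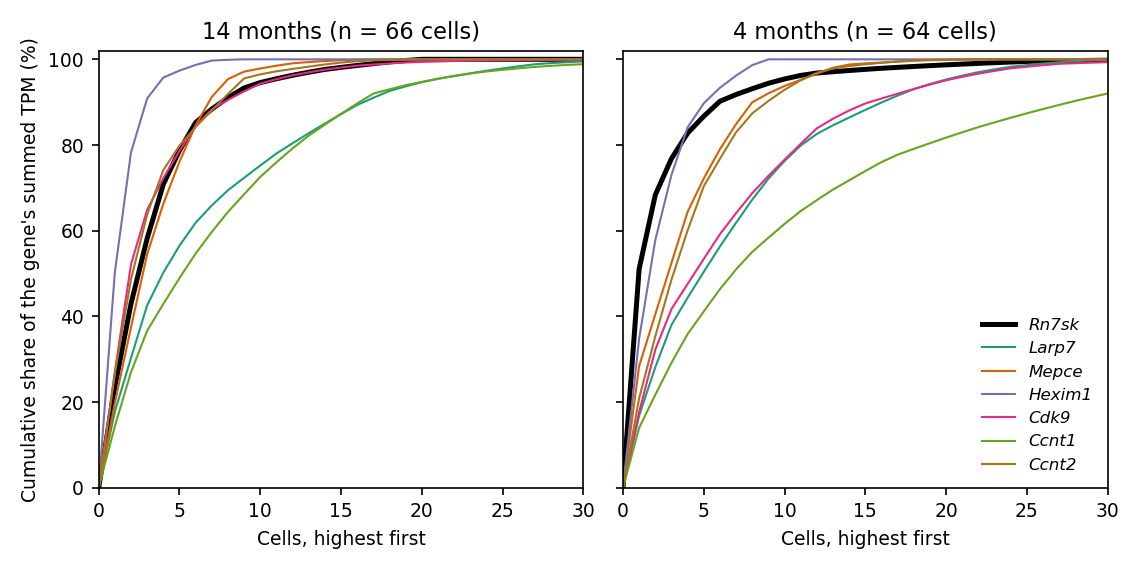
Cumulative share of each gene's summed TPM (vertical axis, %) against kept cells ranked by that gene, highest first (the first 30 cells are drawn), for 14 months on the left and 4 months on the right. The thick black line is Rn7sk, whose highest cell held 23.6% of its sum at 14 months and 51.1% at 4 months. Ccnt1 (green) had the smallest share in its highest cell, with 14.3% at 14 months and 14.0% at 4 months.

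The 5 highest Rn7sk cells of 14 months had 356, 293, 230, 191 and 119 TPM, with 3439 to 4516 genes each. Their other short noncoding RNAs held 0.224% to 0.476% of TPM. Larp7 was at 82.3 to 150 TPM in 4 of them and at 0.33 TPM in the fifth. The cells with 293 and 230 TPM of Rn7sk are the alike pair described above, so they may not be separate cells.

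The 5 highest cells of 4 months held more Rn7sk by orders of magnitude. They had 71957, 24335, 11916, 8399 and 5537 TPM. In the highest, Rn7sk was the most abundant gene, with 7.20% of the cell's TPM. The first 4 had 1808 to 2550 genes, below the 4-month median of 3974.5, while the fifth had 5013. Their other short noncoding RNAs held 4.58% to 24.8% of TPM, and in 2 of them mitochondrial transcripts held 58.4% and 45.1%. Larp7 was at 0 in all 5. Splitting each age at its median number of genes left Rn7sk less frequent at 14 months on both sides. In the 33 cells of 14 months with more genes it was in 39.4% (22.9 to 57.9), and in the 32 such cells of 4 months in 84.4% (67.2 to 94.7). In the cells with fewer genes it was in 7 of 33 of 14 months (8.98% to 38.9%) and 14 of 32 of 4 months (26.4% to 62.3%), with overlapping intervals. The parts were not equal in genes, with medians of 4011 at 14 months and 4997.5 at 4 months in the upper ones and 2464 at 14 months and 3381.5 at 4 months in the lower ones.

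Other short noncoding RNAs were lower at 14 months as well. They held a median of 0.579% of a cell's TPM at 14 months (highest 4.23%) and 2.55% at 4 months (highest 24.8%). Of 80 measured genes of this class, which leaves out Rn7sk, 77 had a lower mean at 14 months, beside 77% of all measured genes. A relative difference of -1 or less was found for 41 of the 80, beside 5.08% of all, and one of 1 or more for 1, beside 3.37%. The median relative difference of the 80 was -1.05, against 0 for all measured genes by construction. It was -1.16 for set 4 and -1.08 for set 5. The kinds of RNA in the class differed. These kinds are types in the gene annotation, and mature microRNAs were not measured as such. Of genes annotated as microRNAs, 28 of 32 were at -1 or less (median -2.20), and of misc_RNAs 10 of 18 (-1.58). Only 2 of 21 small nuclear RNAs (-0.66) and 1 of 8 small nucleolar RNAs (-0.53) were. The median of small nuclear RNAs was -1.16 for set 4 and -0.03 for set 5. Rn7sk ranked 9th lowest of the 81 genes with itself included. Its share of all short noncoding RNA TPM was 0.251% at 14 months and 5.53% at 4 months, and 0.193% at 14 months and 3.09% at 4 months once each age's highest cell was left out. Its rank by mean TPM in the class was 49th at 14 months and 3rd at 4 months.

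Other named transcripts of RNA polymerase III were lower at 14 months where they could be measured. Rn7s1 and Rn7s2, the RNA of the signal recognition particle and listed with identical values, so that they cannot be told apart, were in 15 of 66 cells of 14 months and 44 of 64 cells of 4 months, with a relative difference of -2.59. Rpph1, the RNA of ribonuclease P, was in 3 cells of 14 months and 18 of 4 months, with -0.83. Of the 12 short RNAs listed by name, 9 were not measured. Rn5s, the 5S ribosomal RNA, was in 0 of 66 cells of 14 months, which, counting 3 cells for a count of 0, allows up to 4.55% of cells with 1 TPM or more, and in 11 of 64 cells of 4 months.

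Within 4-month cells, Rn7sk went with the share of the other short noncoding RNAs, at Spearman rho 0.45 over 64 cells, and with the mitochondrial share, at 0.37. Within 14-month cells these were -0.10 and -0.09 over 66 cells. The measures come from the same libraries and share a fixed total of TPM. Leaving out the 3 cells, all of 4 months, in which other short noncoding RNAs held over 10% of TPM, Rn7sk was still in 20 of 66 cells of 14 months and was in 38 of 61 of 4 months. Its mean was then 22.9 TPM in cells of 14 months, against 796 TPM in cells of 4 months, with a log2 difference of -3.30. Whether the lower Rn7sk level is more than a part of the lower level of the class was not tested. Capture of RNAs without a poly(A) tail, such as 7SK, cannot be told apart from their amount in the cell.

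**Figure D3:**
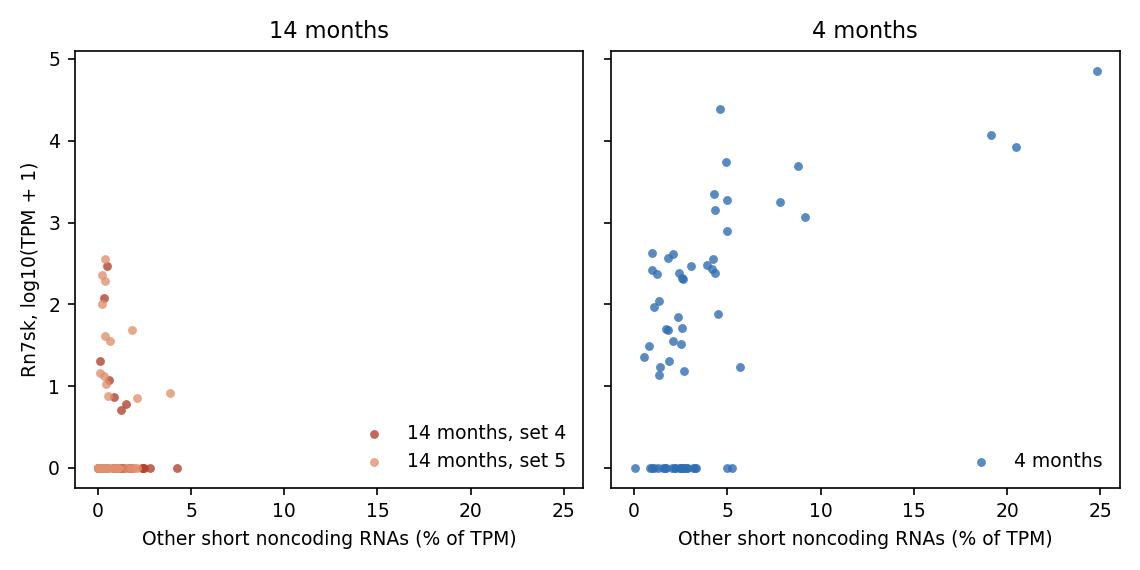
Rn7sk in each kept cell (vertical axis, log10(TPM + 1)) against the share of TPM held by all other short noncoding RNAs (horizontal axis, %), for 14 months on the left and 4 months on the right. The share reached 4.23% at 14 months, in a cell without Rn7sk. At 4 months it reached 24.8%, in the cell with the most Rn7sk.

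The genes of both proteins that stabilise 7SK had overlapping shares at the 2 ages. Larp7 (chr3:127536714-127553349, minus strand) ranged between 0 and 662 TPM at 14 months (median 2.30) and between 0 and 364 TPM at 4 months (median 0.74). It was in 36 of 66 cells of 14 months, 54.5% (41.8 to 66.9), and in 31 of 64 of 4 months, 48.4% (35.8 to 61.3), so the intervals overlapped widely. The difference was 0.42 and the relative difference 0.78, namely 0.72 for set 4 and 0.85 for set 5. In the cells paired by number of genes it was in 63.8% at 14 months (48.5 to 77.3) and 40.4% at 4 months (26.4 to 55.7), with a difference of 1.38 and a relative difference of 1.36, past 1. With a pseudocount of 0.1 the relative difference was 1.22. The sign was positive under all 15 alternatives run for this gene, though below the spread over cells, with an SD of 3.11 at 14 months and 2.87 at 4 months. Larp7 and, by 0.01, Ccnt2 were the 2 members with a higher mean at 14 months.

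Mepce (chr5:137781906-137787655, minus strand), the capping enzyme, was at 0 in most cells of both ages. Its highest value was 158 TPM in 14-month cells and 258 TPM in 4-month cells. It was in 15 of 66 cells of 14 months, 22.7% (13.3 to 34.7), and in 19 of 64 of 4 months, 29.7% (18.9 to 42.4). The difference was -0.26 and the relative difference 0.10, so its sign depended on the scaling. Rn7sk, Larp7 and Mepce were all detected in 5 of 66 cells of 14 months, all of set 5, and in 11 of 64 of 4 months.

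Hexim1 (chr11:103116231-103119725, plus strand), which encodes the inhibitor, was the sparsest member. Its highest value was 84.9 TPM in 14-month cells and 62.1 TPM in 4-month cells. It was in 7 of 66 cells of 14 months, 10.6% (4.37 to 20.6), and in 9 of 64 of 4 months, 14.1% (6.64 to 25.0). The difference was -0.14 and the relative difference 0.21, with opposite signs, and the intervals of the shares overlapped. All 9 of the 4-month cells with Hexim1 also had Rn7sk, against 3 of the 7 at 14 months. If detection were independent, 5.77 such cells would be expected at 4 months and 2.12 at 14 months. Among the 32 cells of 4 months with more genes, Hexim1 was in 8 and Rn7sk in 27. Whether the 2 genes go together was not tested. Hexim2, the paralogue of Hexim1, was in 2 cells of 14 months and 1 of 4 months.

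The kinase and the first T cyclin were lower at 14 months. Cdk9 (chr2:32705784-32713076, minus strand) ranged between 0 and 594 TPM at 14 months (median 0.30) and between 0 and 836 TPM at 4 months (median 4.39). It was in 24 of 66 cells of 14 months, 36.4% (24.9 to 49.1), and in 41 of 64 of 4 months, 64.1% (51.1 to 75.7), and the intervals did not overlap. That rested on the limit of 1 TPM and on all kept cells. Above 0 TPM, Cdk9 was in 56.1% at 14 months (43.3 to 68.3) and 70.3% at 4 months (57.6 to 81.1). At 10 TPM or more it was in 22.7% (13.3 to 34.7) and 42.2% (29.9 to 55.2), and in the cells paired by number of genes in 48.9% (34.1 to 63.9) and 57.4% (42.2 to 71.7), and all of these overlapped. The difference was -1.49 and the relative difference -1.13, with -1.34 for set 4 and -0.93 for set 5. In 47 pairs of cells with like numbers of genes the relative difference was -0.62, and over all columns -0.90, both short of -1. Cdk9 followed the number of genes detected at Spearman rho 0.60 over the 66 cells of 14 months and 0.19 over the 64 cells of 4 months.

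Ccnt1 (chr15:98538689-98570923, minus strand), the cyclin of most P-TEFb, was the most widely detected member. It ranged between 0 and 490 TPM at 14 months (median 3.52) and between 0 and 710 TPM at 4 months (median 36.3). It was in 43 of 66 cells of 14 months, 65.2% (52.4 to 76.5), and in 58 of 64 of 4 months, 90.6% (80.7 to 96.5), with intervals apart. Above 0 TPM they overlapped, at 84.8% for 14 months (73.9 to 92.5) and 93.8% for 4 months (84.8 to 98.3), as they did in the cells paired by number of genes, at 72.3% (57.4 to 84.4) and 91.5% (79.6 to 97.6). At 10 TPM or more they stayed apart, at 40.9% (29.0 to 53.7) and 71.9% (59.2 to 82.4). The difference was -1.63 and the relative difference -1.27, namely -0.94 for set 4 and -1.50 for set 5. Pairing the 47 cells of each age by number of genes gave -1.39. For both Cdk9 and Ccnt1 the difference was negative under all 15 alternatives run for each, and with a pseudocount of 10 the relative difference was -0.66 for Cdk9 and -0.67 for Ccnt1.

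Ccnt2 (chr1:127774164-127808061, plus strand), the other T cyclin, was at 0 in most cells of both ages. Its highest value was 689 TPM in 14-month cells and 331 TPM in 4-month cells, with medians of 0. It was in 20 of 66 cells of 14 months, 30.3% (19.6 to 42.9), and in 19 of 64 of 4 months, 29.7% (18.9 to 42.4). The difference was 0.01 and the relative difference 0.37, and the sets split, at -0.06 in set 4 and 0.74 in set 5. In the cells paired by number of genes it was in 36.2% at 14 months (22.7 to 51.5) and 19.1% at 4 months (9.15 to 33.3), with a difference of 0.68. Whether the difference of Ccnt2 differs from that of Ccnt1 was not tested.

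**Figure D4:**
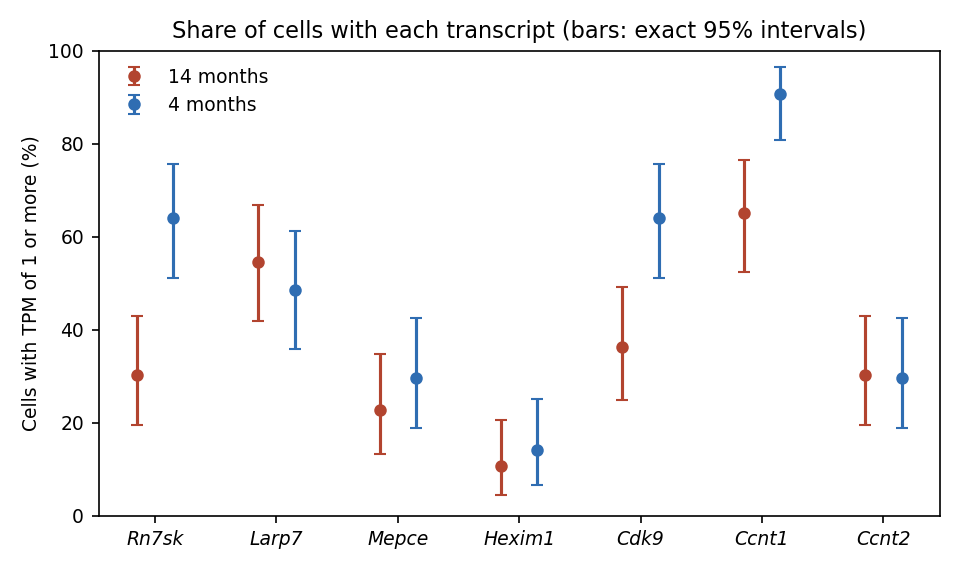
Share of kept cells with 1 TPM or more of each gene (vertical axis, %), for 66 cells of 14 months (red, left of each pair) and 64 cells of 4 months (blue). Bars are exact 95% binomial intervals, which cover counting error only. The intervals of Rn7sk, Cdk9 and Ccnt1 do not overlap between the ages at this limit.

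Counted together, 5 of the 7 genes had a lower mean at 14 months, or 4 of the 6 partner genes. That share lies near the 77% of all measured genes. A relative difference of -1 or less was found for 3 of the 7, Rn7sk, Cdk9 and Ccnt1, beside 5.08% of all measured genes, and one of 1 or more for none, beside 3.37%. In set 4 it was -1 or less for Rn7sk and Cdk9, beside 6.75% of all measured genes, and in set 5 for Rn7sk and Ccnt1, beside 6.56%. At 1 TPM and over all kept cells, shares with intervals apart and lower at 14 months were found for the same 3 genes and for 8.16% of all measured genes. Since the genes were chosen with these values known, nothing is read from the counts.

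**Figure D5:**
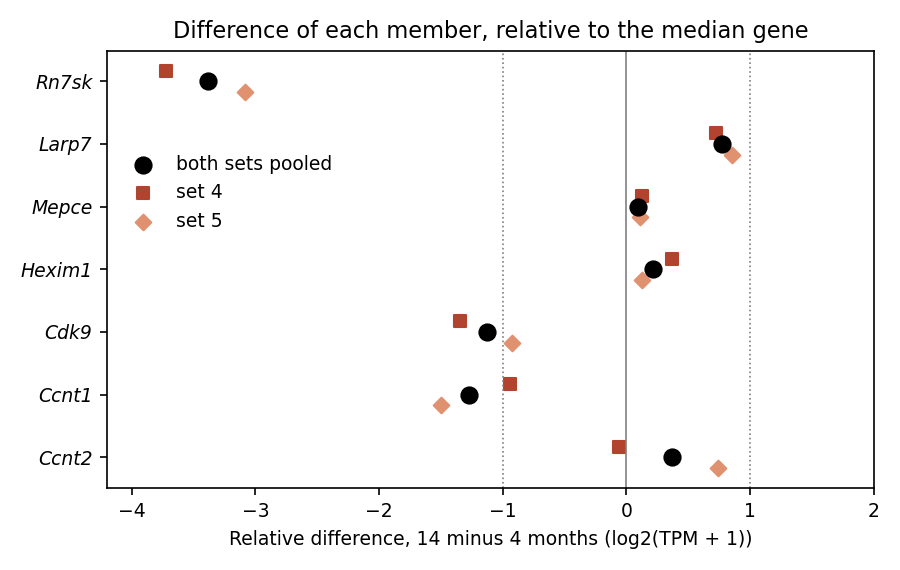
Relative difference of each gene, 14 minus 4 months, in mean log2(TPM + 1) after subtracting the median of the measured genes (horizontal axis). Black circles pool both 14-month sets, squares are set 4 and diamonds set 5. Dotted lines mark -1 and 1. Rn7sk lies at -3.38, Ccnt1 at -1.27 and Cdk9 at -1.13, and the squares and diamonds of Cdk9, Ccnt1 and Ccnt2 fall on different sides of -1 or 0.

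The balance between the RNA and its partners within a cell was compared in TPM, which is per length. Rn7sk exceeded the summed TPM of the 6 partner genes in 6 of 66 cells of 14 months, 9.09% (3.41 to 18.7), and in 23 of 64 of 4 months, 35.9% (24.3 to 48.9). The sum itself was close, with a median of 138 TPM at 14 months and 147 TPM at 4 months, so these counts largely repeat the Rn7sk level. By mean TPM, the order at 14 months was Larp7 (56.4), Ccnt1 (51.8), Ccnt2 (39.2), Cdk9 (33.2), Rn7sk (22.9), Mepce (12.1) and Hexim1 (2.56). At 4 months it was Rn7sk (2201), Ccnt1 (79.3), Cdk9 (73.8), Larp7 (33.8), Ccnt2 (24.7), Mepce (14.2) and Hexim1 (2.79). Values of neighbours in these orders overlapped from cell to cell.

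Against single partners, Rn7sk was above Hexim1 in 20 of 66 cells of 14 months and in 41 of 64 of 4 months. These were all the cells with Rn7sk, so the counts only repeat its detection. Hexim1 was above Rn7sk in 5 cells of 14 months and in 0 of 4 months. Rn7sk was above Ccnt1 in 16 cells of 14 months and in 29 of 4 months, while Ccnt1 was above Rn7sk in 43 and 31.

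The kinase and a T cyclin were detected together in 21 of 66 cells of 14 months, 31.8% (20.9 to 44.4), and in 39 of 64 of 4 months, 60.9% (47.9 to 72.9). Adding Rn7sk left 9 cells of 14 months, 13.6% (6.43 to 24.3), and 25 of 4 months, 39.1% (27.1 to 52.1). Cdk9 itself was in 24 cells of 14 months and 41 of 4 months, so its counts with a T cyclin largely repeat its own detection. The limits given for Cdk9 above therefore apply. Counts with Rn7sk added also rest on its own detection, in 20 cells of 14 months and 41 of 4 months. Detection of genes together is given at 1 TPM and over all kept cells only. Each cell with Rn7sk had at least 1 partner, at both ages. Most cells did, 58 of 66 of 14 months and 62 of 64 of 4 months. If detection were independent, 17.6 of the 20 and 39.7 of the 41 cells with Rn7sk would have had a partner. No member at all was found in 8 cells of 14 months and 2 of 4 months, and a cell had a median of 2 partners at 14 months and 3 at 4 months. Over cells, Rn7sk correlated with each partner at Spearman rho between -0.03 and 0.23 at 14 months and between -0.26 and 0.39 at 4 months, weak values in sparse data.

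Other genes of the pathway were taken from lists by function. Of 18 measured genes whose proteins recruit P-TEFb or belong to the elongation complexes it joins, 16 had a lower mean at 14 months (77% of all measured genes), 2 had a relative difference of -1 or less (5.08% of all) and none 1 or more (3.37% of all), and the median was -0.05. The same shares over all measured genes apply to the lists that follow. The lowest was Brd2 (-1.52), whose protein binds acetylated histones. It was in 40 of 66 cells of 14 months, with a median of 8.79 TPM, and in 54 of 64 of 4 months, with a median of 86.5 TPM. Its mean TPM was close, at 234 at 14 months and 232 at 4 months. At the other end were Aff3 (0.44), of the super elongation complex family, and Eaf1 (0.39), a partner of the ELL elongation factors.

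Of 9 measured genes of pausing factors and RNA polymerase II, 7 had a lower mean and none passed -1 or 1, with a median of -0.23. Supt5 (-0.98), a P-TEFb substrate, was in 18 of 66 cells of 14 months and in 34 of 64 of 4 months. Nelfe (-0.68), of the negative elongation factor, differed between the sets, at 0.23 in set 4 and -1.37 in set 5. The highest were Polr2m (0.54) and Polr2a (0.43), the largest polymerase subunit.

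Among 12 other transcription kinases and their cyclins, 10 had a lower mean, beside 77% of all measured genes, and the median relative difference was 0.06. Ccnl2 stood lowest (-1.77), in 20 of 66 cells of 14 months and 44 of 64 of 4 months, followed by Ccnl1 (-0.99). Both encode cyclins that pair with CDK11. Cdk12 (0.45) and Cdk11b (0.42) were highest.

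Other binders of 7SK or relatives of its proteins had 13 measured genes, 6 with a lower mean, 1 at -1 or less and 3 at 1 or more, with a median of 0.63. Hmga1 (-1.35), a chromatin protein that 7SK binds, and the splicing factor Srsf1 (-0.96) were lowest. Srsf2 (1.37) and Hnrnpa2b1 (1.30), whose proteins bind RNA in splicing and, in other cells, 7SK, were highest. Srsf2 was at 0.75 for set 4 and 1.88 for set 5, and Hnrnpa2b1 at 1.15 for set 4 and 1.45 for set 5. The machinery of RNA polymerase III, which transcribes Rn7sk, had 23 measured genes, 14 with a lower mean, none at -1 or less and 2 at 1 or more, with a median of 0.24. Lowest were Maf1 (-0.77), the polymerase III repressor, and Snapc4 (-0.54), a subunit of the factor that binds the promoters of small nuclear RNA genes. Polr3k (1.40), a polymerase III subunit, and Sub1, a transcriptional coactivator with 1.44 for set 4 and 1.05 for set 5, were highest.

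The 5 genes whose values went most like those of Rn7sk at both ages, by the lower of the 2 Spearman rho among 9220 genes, were Fdft1, mt-Nd3, Gm12480, Tprkb and Maoa. The highest were Fdft1, which encodes squalene synthase, at 0.43 over 66 cells of 14 months and 0.41 over 64 cells of 4 months, and mt-Nd3, a mitochondrial subunit of complex I, at 0.39 and 0.43. These values are weak, were picked as extremes, and share libraries with Rn7sk.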

How the data were processed

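The deposited table holds TPM per gene and cell, made by the authors with Bowtie2 2.2.0 and RSEM 1.2.12 on mm10, per the submitters' processing notes. Each column sums to 1000000 TPM, so depth is unknown, and genes detected are given in its place. Column names give the age but not the labelled cell, and there are labels for 83 cells at 14 months and 84 at 4 months. Symbols and coordinates came from GENCODE M21, which matched 37607 of 38924 identifiers. Cells with at least 1000 genes at TPM 1 or more were kept, with no doublet caller, since it needs counts. Means used log2(TPM+1), which understates changes of low genes. Shares have exact (Clopper-Pearson) 95% intervals, and a count of 0 is limited by 3 cells. No test was run, since each age is 1 sample. Members and lists were chosen with earlier results of these data known. The text names all 7 members and, for each list, the 2 highest and 2 lowest relative differences, while Hexim2, Rn5s and the markers were chosen after their values were seen. Some genes that the rule takes are not reported here. Scripts used pandas 2.3.3 and numpy 2.4.6 under Python 3.11.15, with scipy 1.17.1 for intervals and matplotlib 3.10.9. Only the calculation of differences, not of shares, intervals or pairs, was checked on simulated data with known changes.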

Additional observations from a re-analysis of the deposited data

Results flagged for a closer look

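Rn7sk also appeared in a column that was not kept and entered only the comparison over all columns. Of the 38 columns left out for having fewer than 1000 genes, 1 had it, a 4-month column of 496 genes in which it reached 84502 TPM, above the highest kept cell. That was 8.45% of the column's TPM. Mitochondrial transcripts held 47.4% of the column and other short noncoding RNAs 7.01%, and all 6 partner genes were at 0. None of the 18 left-out columns of 14 months had Rn7sk.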

How the results depend on the processing

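The Rn7sk difference, -3.74, kept its sign under all 16 alternatives. It was -4.88 with a pseudocount of 0.1, -2.54 with a pseudocount of 10, -3.38 in cells with 2000 or more genes, -3.01 over all columns, -3.22 in 47 pairs of cells with like numbers of genes, -3.37 without cells of high mitochondrial or single-gene share, -5.39 as a difference of medians and -3.38 relative to the median of measured genes. Chosen after seeing the data, leaving out cells with over 10% other short noncoding RNA gave -3.30, leaving out cells of alike pairs -3.84 and counting the most alike pair as 1 cell -3.84. The share at 4 months was 50.0% over all columns, and the ratio of mean TPM was 0.0163 once each age's top cell was left out and 0.0166 once the 5 highest were. Of the 6 partner genes, 4 had a lower mean, but 2 did in the pairs with like numbers of genes, by medians and relative to the median gene. The count was 5 with a pseudocount of 0.1, in cells with 2000 or more genes and in set 4 alone. It was also 5 without cells of over 10% other short noncoding RNA and without cells of alike pairs. The sign varied among alternatives for Mepce, Hexim1 and Ccnt2. The causes were not tested. No paired analysis was possible because the columns cannot be tied to labelled cells and no test was run. With 1 sample an age, neither the spread between animals nor capture can be judged, and depth is unknown.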
